A study of Rattus norvegicus with 10 samples.

Results

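A set of genes of oxygen storage, oxygen sensing and the response to low oxygen was followed in rat skeletal muscle after death: Mb, Hif1a, Epas1, Egln1, Egln3, Bnip3, Bnip3l, Higd1a, Ankrd37 and Ddit4. They were chosen as a named set of 10 genes, and 9 of them were measured, among 15037 genes with a symbol and 23188 probe sets tested. Egln1 was not analysed here because no probe set used here carried its symbol. Each of the 9 genes had 1 probe set, a set of short DNA oligonucleotides on the array from which the level of a gene is read.

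The muscle came from male wild-type Wistar rats killed by cervical dislocation. Femoral muscle was taken after 48 h at 25 °C from 5 rats (48 h of postmortem interval, PMI) and straight after death from 5 other rats (0 h of PMI), and the labels give neither group an age. Every rat had a Clariom S Rat array to itself, so the replicates are separate animals, and 10 arrays limit the precision of every value. All levels are log2 values of RMA, which corrects the background, quantile-normalizes the probes across arrays and then summarises each probe set. The summarised values did not share a distribution: their interquartile range was 1.92 to 2.12 at 48 h and 2.55 to 2.66 at 0 h. They are relative, so the level of a gene is compared between rats and not with the level of another gene. The samples are whole muscle, in which fewer cells of a type and less RNA per cell cannot be told apart. The muscle fibre markers were high in both groups, with a median over the list of 10.6 to 12.0 at 48 h and 12.5 to 12.8 at 0 h.

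Myoglobin, encoded by Mb, binds oxygen in muscle fibres, above all in slow and oxidative ones, and carries it towards the mitochondria. Cells sense oxygen through the prolyl hydroxylases of the EGLN family, which use oxygen to hydroxylate the alpha subunits of the hypoxia-inducible factors, among them those encoded by Hif1a and Epas1. The hydroxylated subunits are bound by the VHL ubiquitin ligase and degraded, so much of this control acts on protein and is not seen on an array. When oxygen is short the subunits pair with ARNT and switch on target genes, of which Bnip3, Ankrd37, Egln3 and Ddit4 are well known examples in mammals.

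Of the 9 measured genes, 3 fell at 48 h of PMI (Mb, Bnip3 and Higd1a), 1 rose (Epas1) and 5 met neither call. A gene was counted as having risen or fallen when its change was 2-fold or more with a Benjamini-Hochberg adjusted p under 0.05 in limma, fitted over all probe sets. By the same rule 12.1% of all probe sets fell, 4.35% rose and 16.5% did either, so the share of the 9 genes that fell was above that of all probe sets, but the genes are few and were not picked at random. Falls were also more frequent at higher levels. Over all probe sets 2811 fell, and 2629 fell when only those at or above the median level were fitted. The share that fell was thus above 12.1% among probe sets at or above the median. The 3 genes that fell were among these, while Egln3, Ankrd37 and Ddit4 did not pass that filter. By the adjusted p alone, 4 of the 9 were lower and 2 higher, beside 22.8% and 22% of all probe sets (44.9% in either direction). Of the 4, Egln3 did not stay lower by this rule in every fit that left out 1 rat. The 5 rats at 48 h lay wholly below the 5 rats at 0 h for Bnip3 and Higd1a and wholly above them for Epas1 and Bnip3l, while 17.7% of all probe sets were separated downwards, 13.4% upwards and 31.1% either way. The median change of the 9 genes was 0.063 on the log2 scale, and that of all probe sets was 0.10.

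**Figure D1:**
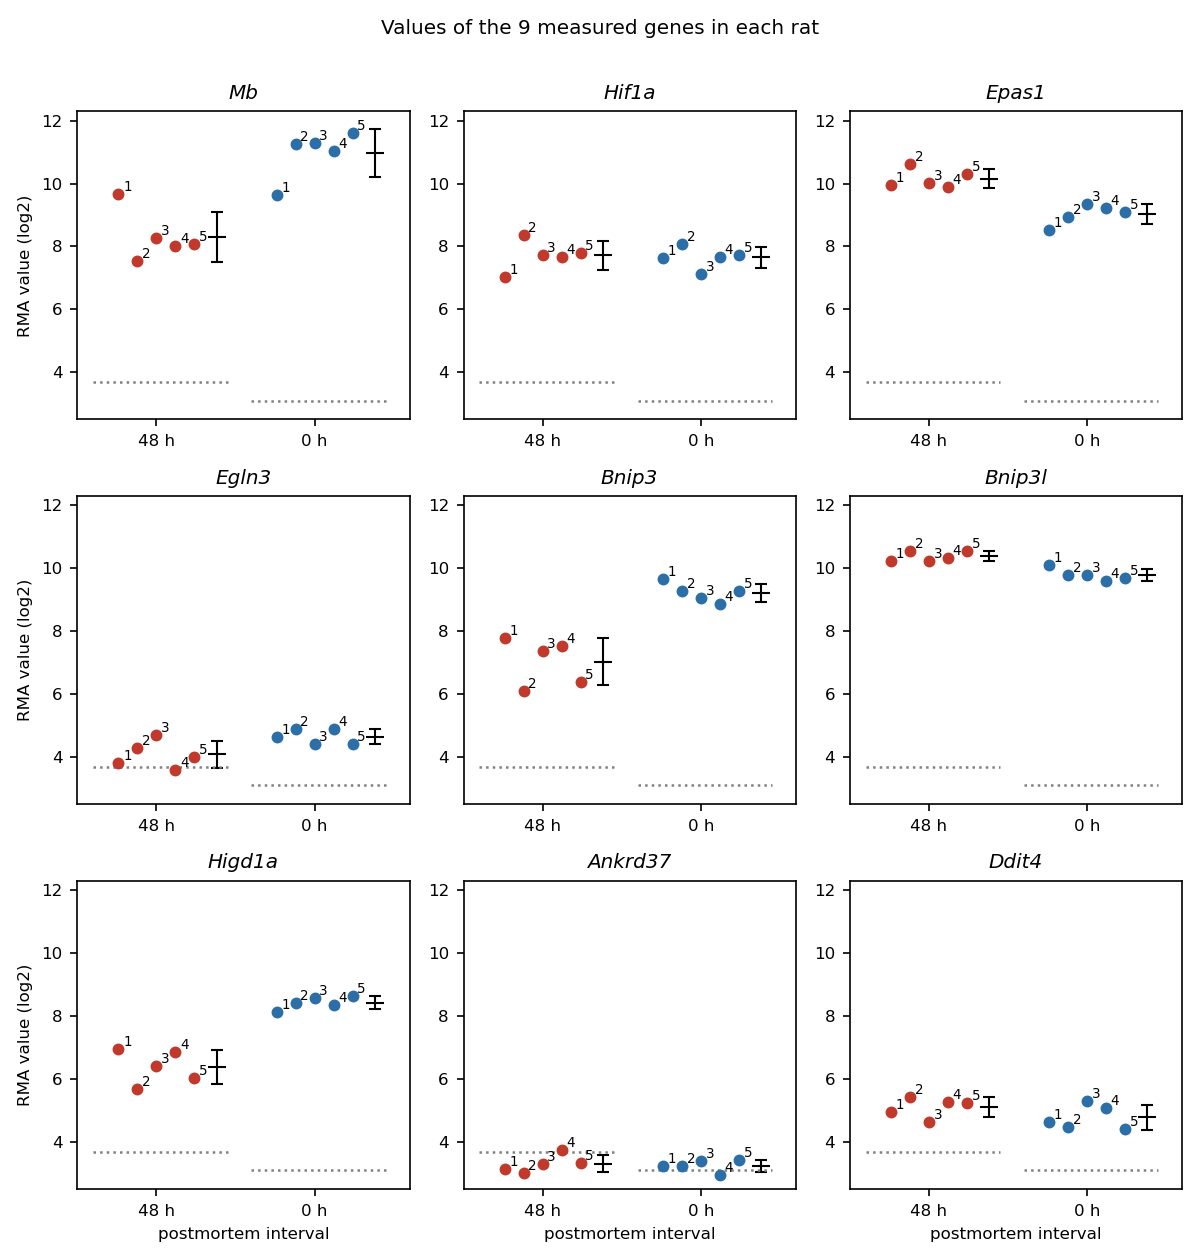
Level (log2, RMA) of each of the 9 genes in every rat, 48 h of PMI on the left of each panel and 0 h on the right; points are numbered rats, bars show the group mean with its SD, and dotted lines the mean background level of the group's arrays. Bnip3 and Higd1a lay lower and Epas1 and Bnip3l higher in all 5 rats at 48 h than in all 5 at 0 h, while Mb overlapped through rat 1 of each group.

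Mb showed the deepest fall of the 9 genes. Its level was 9.65, 7.55, 8.25, 8.01 and 8.06 in rats 1 to 5 at 48 h, against 9.63, 11.26, 11.29, 11.03 and 11.62 in rats 1 to 5 at 0 h. The groups met only at rat 1: the 48 h rat of that number was the highest of its group, and the 0 h rat of that number was the lowest of its group. The mean (± SD over 5 rats, as for all means here) was 8.31 ± 0.80 at 48 h and 10.97 ± 0.77 at 0 h. Mb fell by 2.66 on the log2 scale (SE 0.37), or 6.32-fold, with a limma adjusted p of 1.91e-05. Leaving out 1 rat at a time gave changes of −3.00 to −2.47. Without rat 1 of both groups, an alternative chosen after seeing the data, the change was −3.33 (adjusted p = 9.52e-08 in limma).

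The low Mb of rat 1 at 0 h came with low slow-fibre markers, a list of contractile genes of oxidative fibres such as Myh7 (slow myosin heavy chain) and Tnnt1 (slow troponin T). The median level of that list was 6.28, 5.80, 5.42, 6.41 and 6.70 in rats 1 to 5 at 48 h, against 5.56, 10.11, 6.95, 9.84 and 10.93 in rats 1 to 5 at 0 h. Rats 1 and 3 at 0 h were thus in or near the range of the 48 h rats for slow-fibre genes, yet Mb in rat 3 at 0 h, at 11.29, was close to that of the other 0 h rats. All 9 measured genes of the list fell at 48 h, with a median change of −2.98, but their spread at 0 h was wide: Myh7 ran from 4.08 to 10.33 at 0 h. With the ordinary linear model in place of moderation 2 of the 9 kept the call, and Myh7 (−3.69) and Tnnt1 (−3.70) had adjusted p-values of 0.0506 and 0.0605. The part of fibre type in the level of Mb was not tested.

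The genes whose values over the 10 arrays ran closest to those of Mb were sought among the 15048 other probe sets with a symbol, by the root mean square of the difference after each gene was centred on its own mean. The 5 closest were Endog (0.409 log2 units), a mitochondrial endonuclease, Hspb6 (0.416), a small heat shock protein of muscle, Atp5mc1 (0.422), a subunit of the ATP synthase, Got1 (0.435), the cytosolic aspartate aminotransferase, and Jph2 (0.437), which ties the sarcoplasmic reticulum to the T-tubule. Their changes ran from −3.01 for Got1 to −2.32 for Atp5mc1. No gene of the slow-fibre list was among these 5. The measure also counts the size of the swings between rats, and these were wider in that list. The SD at 0 h was 2.82 for Myh7 and 2.89 for Tnnt1, against 0.77 for Mb. The absence of the list therefore tells nothing about fibre type.

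The other oxygen-binding globins outside the red cell met neither call. Cygb (cytoglobin) changed by 0.18 (adjusted p = 0.411) and Ngb (neuroglobin) by −0.37 (adjusted p = 0.228). The erythroid markers, which include haemoglobin genes, moved the opposite way to Mb: 7 of 10 measured rose and none fell, with a median change of 1.82 (0 rose and 3 fell with Bacillus centring).

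The promoters of the genes that met a call are shown because they differ in the core letters of the hypoxia response element. Bnip3 and Higd1a, which fell, carry the core letters, while Mb, which also fell, and Epas1, which rose, do not. Each line gives the 250 bases before the RefSeq start of transcription on the gene's own strand (assembly GRCr8), 5′ to 3′, with every match to ACGTG or GCGTG on either strand in capitals (on the other strand they read CACGT and CACGC).
Mb: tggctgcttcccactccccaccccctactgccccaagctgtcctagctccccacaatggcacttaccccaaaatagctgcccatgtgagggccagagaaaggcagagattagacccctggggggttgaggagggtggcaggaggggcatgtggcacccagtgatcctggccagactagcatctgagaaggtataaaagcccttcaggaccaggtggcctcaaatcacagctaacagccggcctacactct
Bnip3: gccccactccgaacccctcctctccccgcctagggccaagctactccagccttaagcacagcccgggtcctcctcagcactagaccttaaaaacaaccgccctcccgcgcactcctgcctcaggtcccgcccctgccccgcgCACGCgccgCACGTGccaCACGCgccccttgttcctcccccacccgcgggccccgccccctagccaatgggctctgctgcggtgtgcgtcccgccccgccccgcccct
Higd1a: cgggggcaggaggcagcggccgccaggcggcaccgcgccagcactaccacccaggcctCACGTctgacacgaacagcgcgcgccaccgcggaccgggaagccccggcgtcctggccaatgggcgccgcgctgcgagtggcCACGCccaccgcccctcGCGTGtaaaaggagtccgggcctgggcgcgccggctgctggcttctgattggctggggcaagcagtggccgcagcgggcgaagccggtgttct
Epas1: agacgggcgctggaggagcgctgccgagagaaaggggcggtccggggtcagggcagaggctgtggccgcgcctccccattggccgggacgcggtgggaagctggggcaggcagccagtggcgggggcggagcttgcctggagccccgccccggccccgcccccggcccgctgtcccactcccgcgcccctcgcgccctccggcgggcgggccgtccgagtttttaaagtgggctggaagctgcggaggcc
The windows lie at chr7:110647743-110647992, chr1:203154963-203155212, chr8:130400889-130401138 and chr6:13624730-13624979, all on the minus strand.

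Such a window was found for 8 of the 9 measured genes, all but Bnip3l. The core letters were in 5 of the 8 (Hif1a, Bnip3, Higd1a, Ankrd37 and Ddit4), and in 36.7% of all 33469 windows in the table. Bnip3 had 4 matches, at positions −108, −99, −98 and −90 from the start, of which the middle pair is the palindrome CACGTG read on both strands. Higd1a had 3, at −192, −110 and −93. Windows with at least 3 matches made up 6.21% of all. CACGTG, which is also the E-box letters, was in Hif1a, Bnip3 and Ankrd37 and in 5.59% of all windows. The Mb window held 1 match to TATAAA (either strand), as did 12.9% of all windows. Its bases were 58.4% G or C, with 1 CpG, against 72.4% with 23 in Bnip3, 74.4% with 32 in Higd1a and 76.8% with 28 in Epas1. The medians over all windows were 51.2% G or C and 5 CpG. Each core match contains a CpG, so the shares of all windows are not those of windows of like composition. These matches describe the letters only: of the 5 genes that hold the core, 2 fell and 3 met neither call.

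The 2 oxygen-regulated alpha subunits differed from each other. Hif1a was 7.03, 8.36, 7.73, 7.67 and 7.78 in rats 1 to 5 at 48 h, against 7.64, 8.08, 7.12, 7.68 and 7.74 in rats 1 to 5 at 0 h. The groups overlapped over nearly their whole range. The mean was 7.71 ± 0.47 at 48 h and 7.65 ± 0.34 at 0 h, a change of 0.063 (adjusted p = 0.839 in limma) with a 95% interval of −0.42 to 0.54.

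Epas1, which encodes the second HIF alpha subunit and is best known from endothelium, was 9.95, 10.62, 10.01, 9.90 and 10.31 in rats 1 to 5 at 48 h, against 8.52, 8.94, 9.34, 9.23 and 9.11 in rats 1 to 5 at 0 h. Every 48 h rat lay above every 0 h rat. The mean was 10.16 ± 0.31 at 48 h and 9.03 ± 0.32 at 0 h. Epas1 rose by 1.13 (SE 0.19, 2.19-fold, adjusted p = 0.000178). This call depended on the scaling: the change was 1.77 after cyclic loess and 1.81 after quantile normalization, 0.66 when arrays were centred on the olfactory receptor probe sets, which ended the call, and −0.94 with arrays centred on the Bacillus control probe sets. The median change of all probe sets was −0.365 and −1.97 under those 2 centrings, so Epas1 lay above the median of all probe sets in each case.

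Rat by rat, Hif1a minus Epas1 averaged −2.44 ± 0.29 at 48 h and −1.38 ± 0.56 at 0 h. The offset between 2 probe sets has no meaning of its own, but its change does not depend on how an array is centred. It moved by −1.07, with p = 0.00794 in an exact permutation test over all 252 splits (two-sided), which is the lowest p these group sizes can give. The adjusted p over the 2 pairs compared was also 0.00794. The difference ran from −2.92 to −2.23 at 48 h and from −2.22 to −0.87 at 0 h, so the groups were barely separated. Leaving out 1 rat at a time gave −1.28 to −0.94.

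The rise of Epas1 was shared with endothelial genes. Of 11 measured endothelial markers 8 rose and none fell, with a median change of 1.46, while 5 rose with olfactory centring, and 0 rose and 3 fell with Bacillus centring. The median level of the list was 8.33 to 9.26 at 48 h, against 6.57 to 7.25 at 0 h. Emcn (endomucin, a surface protein of capillaries and veins) rose by 2.15, Flt1 (a receptor for vascular endothelial growth factor) by 1.93 and Eng (endoglin) by 1.59, of which Flt1 and Eng took the other sign with Bacillus centring (−0.14 and −0.48). The 5 genes closest to Epas1 by the same measure as for Mb were Sh2d3c (0.122), Tmem88 (0.157), Fli1 (0.175), Cdh5 (0.178) and Igfbp7 (0.193). Cdh5, the cadherin of endothelial junctions, is also on the marker list, and Fli1 is a transcription factor of endothelium and blood cells. Cdh5 changed by 1.23, Sh2d3c by 1.21, Fli1 by 1.11 and Tmem88 by 1.08, while Igfbp7, at 0.99, was just under the fold criterion. Cdh5, Sh2d3c, Fli1 and Tmem88 lost the call with olfactory centring (0.76, 0.75, 0.65 and 0.61), and these 4 and Igfbp7 took the other sign with Bacillus centring. Igfbp7 met the call after cyclic loess (1.65) and quantile normalization (1.58), and in 5 of the 10 fits that left out 1 rat (0.91 to 1.04 over all 10): those without rat 1, 3 or 4 at 48 h or rat 3 or 5 at 0 h. The part of endothelial RNA in the level of Epas1 was not tested.

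**Figure D2:**
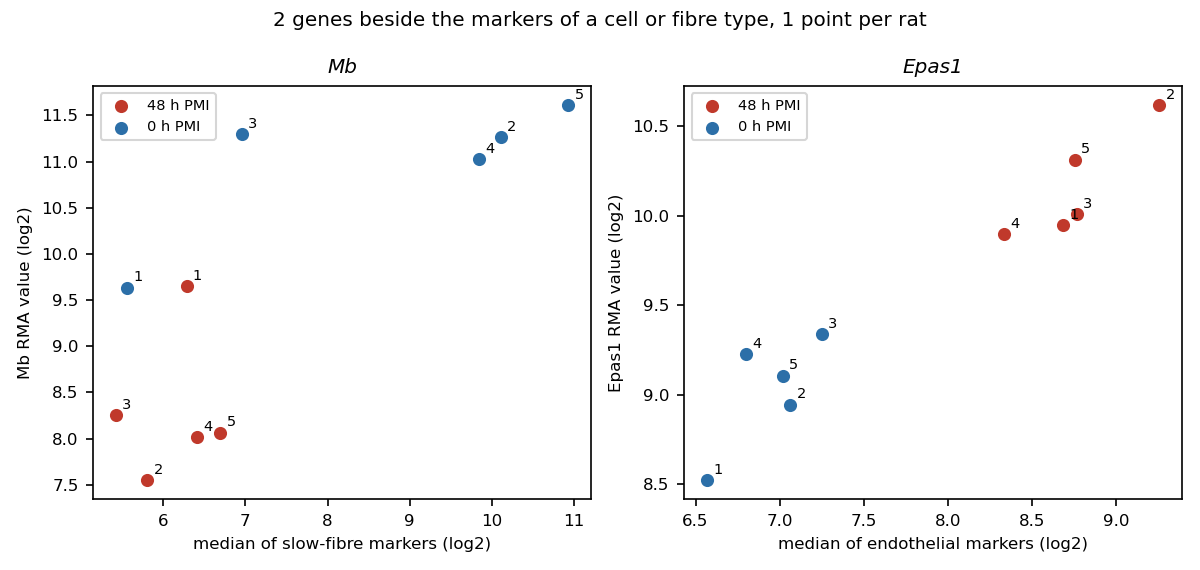
Level of Mb against the median of the slow-fibre markers (left) and of Epas1 against the median of the endothelial markers (right), both in log2, with 1 point per rat and its number; colours mark 48 h and 0 h of PMI. Rat 1 at 0 h was low on both axes of the left panel, while rat 3 at 0 h was low for slow-fibre markers with Mb at 11.29.

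Among the prolyl hydroxylases, Egln3, itself a target of the pathway, was near the lower end of what the arrays measured. It was 3.82, 4.30, 4.70, 3.59 and 4.01 in rats 1 to 5 at 48 h, against 4.64, 4.91, 4.41, 4.89 and 4.42 in rats 1 to 5 at 0 h. The 48 h rats were mostly lower, but rat 3 at 48 h lay inside the 0 h range. The change was −0.57 (SE 0.21, adjusted p = 0.0326), or 1.49-fold, under the fold criterion. The limma adjusted p rose above its threshold without rat 1, 4 or 5 at 48 h (0.0568 to 0.0778). It also did so without rat 1, 2 or 4 at 0 h (0.0566 to 0.0857). Without rat 2 or 3 at 48 h or rat 3 or 5 at 0 h it was 0.00646 to 0.0367. With the ordinary linear model in place of moderation it was 0.0724. The median of 23 background probe sets was 3.54 to 3.82 at 48 h and 3.04 to 3.14 at 0 h. Egln3 was above its own array's background median in 4 of 5 rats at 48 h, with differences from it of −0.21 to 1.04, and in 5 of 5 at 0 h, with differences of 1.27 to 1.85.

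The list of other regulators of the HIF subunits held 19 measured genes, of which 7 fell, none rose and 12 met neither call, with a median change of −0.59. The deepest falls were in Eloc (−1.83, adjusted p = 1.39e-07) and Rbx1 (−1.56, adjusted p = 6.99e-07), both subunits of the VHL ubiquitin ligase, and in Egln2 (−1.39, adjusted p = 4.80e-05), another prolyl hydroxylase. After cyclic loess or quantile normalization 3 of the 19 fell, and Rbx1 and Egln2 were no longer among them. Of genes singled out after their values were seen, Vhl changed by −0.26 (adjusted p = 0.198), Arnt, the shared partner of the alpha subunits, by −0.59 (adjusted p = 0.0405), and Hif3a, a further alpha subunit, by 0.51 (adjusted p = 0.0430), all under the fold criterion. Vhl (3.68 to 4.38) and Hif3a (4.29 to 5.35) were low at 48 h, where the background median was 3.54 to 3.82. At 0 h Vhl was 4.21 to 4.41 and Hif3a 3.97 to 4.34, against 3.04 to 3.14.

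Bnip3 and Bnip3l encode related receptors of the outer mitochondrial membrane that recruit the autophagy machinery and so mark mitochondria for removal. Bnip3 was 7.79, 6.10, 7.38, 7.53 and 6.38 in rats 1 to 5 at 48 h, against 9.65, 9.28, 9.06, 8.87 and 9.27 in rats 1 to 5 at 0 h. The groups were well apart, and the 48 h rats were more spread. The mean was 7.04 ± 0.75 at 48 h and 9.22 ± 0.29 at 0 h. Bnip3 fell by 2.19 (SE 0.28), or 4.55-fold, with an adjusted p of 9.44e-06 in limma.

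Bnip3l was 10.25, 10.57, 10.22, 10.33 and 10.54 in rats 1 to 5 at 48 h, against 10.11, 9.79, 9.77, 9.59 and 9.70 in rats 1 to 5 at 0 h. Here too the groups did not overlap, with the 48 h rats higher. The mean was 10.38 ± 0.16 at 48 h and 9.79 ± 0.20 at 0 h. The change of 0.59 (SE 0.16, adjusted p = 0.00706) was 1.50-fold and so under the fold criterion. It passed that criterion after cyclic loess (1.24) and quantile normalization (1.25). It was 0.12 with olfactory centring (adjusted p = 0.584), no longer significant, and −1.48 with arrays centred on the Bacillus controls, above the median of all probe sets in that scaling.

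The 2 receptors therefore moved apart. Bnip3 minus Bnip3l averaged −3.34 ± 0.90 at 48 h and −0.57 ± 0.14 at 0 h, a change of −2.77. It ran from −4.46 to −2.46 at 48 h and from −0.72 to −0.43 at 0 h, so the groups did not meet. The exact permutation test (two-sided) again gave the smallest possible p, 0.00794. That p was fixed in advance and adds nothing, because at 48 h Bnip3 was wholly lower and Bnip3l wholly higher. Leaving out 1 rat at a time gave −3.00 to −2.49. Egln1 against Egln3, a further pair of the same kind, could not be compared without a value for Egln1.

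**Figure D3:**
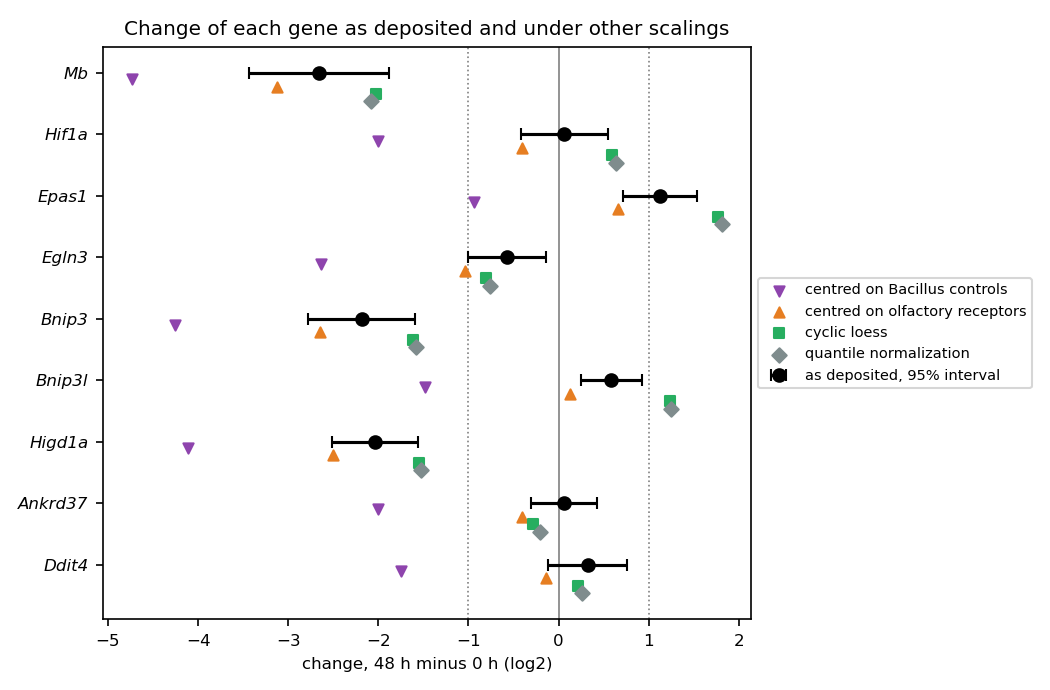
Change at 48 h against 0 h of PMI (log2) of each of the 9 genes as deposited, with its 95% interval, and under 4 other scalings of the same arrays; dotted lines mark 2-fold. Mb, Bnip3 and Higd1a were below 0 under all 5, while Epas1 and Bnip3l changed sign with arrays centred on the Bacillus controls.

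The list of partners in mitophagy, without the 2 receptors themselves, had 14 measured genes: 7 fell, none rose and 7 met neither call, with a median change of −1.001. The deepest falls were in Pink1 (−2.38, adjusted p = 1.49e-08), the kinase that marks damaged mitochondria, Optn (−2.07, adjusted p = 1.67e-06), an autophagy receptor, and Phb2 (−1.80, adjusted p = 3.26e-07), a prohibitin of the inner membrane that also acts as a receptor. After cyclic loess or quantile normalization 4 fell and 1 rose.

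Higd1a encodes a small protein of the inner mitochondrial membrane that binds respiratory chain complexes and is induced by low oxygen. It was 6.97, 5.67, 6.42, 6.84 and 6.04 in rats 1 to 5 at 48 h, against 8.14, 8.42, 8.59, 8.36 and 8.64 in rats 1 to 5 at 0 h. All 48 h rats were below all 0 h rats. The mean was 6.39 ± 0.54 at 48 h and 8.43 ± 0.20 at 0 h. Higd1a fell by 2.04 (SE 0.23), or 4.12-fold, with an adjusted p of 1.68e-06 in limma. Of its family, Higd2a, an assembly factor of the same membrane, fell by 1.39 (adjusted p = 2.32e-05) and Higd1b changed by −0.24 (adjusted p = 0.319). Higd2a lost its call after cyclic loess (−0.76) and quantile normalization (−0.69), whereas Higd1a kept it.

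Ankrd37, an ankyrin-repeat protein and a direct HIF target, was not measurable above background at 48 h. It was 3.15, 3.02, 3.31, 3.74 and 3.33 in rats 1 to 5 at 48 h, against 3.23, 3.22, 3.40, 2.95 and 3.43 in rats 1 to 5 at 0 h. The values of the groups were mixed. It lay above the background median of its array in 0 of 5 rats at 48 h and in 4 of 5 at 0 h, by 0.384 at most, so its change of 0.063 (adjusted p = 0.788) is that of values at or near background.

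Ddit4 encodes a stress-induced protein that restrains mTORC1, the kinase complex that drives growth. It was 4.96, 5.44, 4.63, 5.28 and 5.23 in rats 1 to 5 at 48 h, against 4.64, 4.47, 5.31, 5.07 and 4.42 in rats 1 to 5 at 0 h. The groups overlapped. The change was 0.32 (SE 0.21, adjusted p = 0.215), with a 95% interval of −0.11 to 0.76. Ddit4 was not far above its own array's background median, by 0.97 to 1.80 at 48 h and 1.38 to 2.17 at 0 h. Of 15 measured relatives of Ddit4 and genes of the mTORC1 pathway, 4 fell, 1 rose and 10 met neither call, with a median change of −0.75, and 12 fell with olfactory centring. Rps6kb1 (−1.74), the S6 kinase, Eif4ebp1 (−1.67), a brake on translation that mTORC1 releases, and Rheb (−1.61), its activator, which is on the mitophagy list too, fell the most, and Sesn2, a stress-induced brake on the complex, rose by 1.10. Sesn2 lost the call with arrays centred on the olfactory receptors (0.63) and without rat 1 of both groups (0.92), and took the other sign with Bacillus centring (−0.97).

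The wider list of genes known as HIF targets held 37 measured genes: 14 fell, 1 rose and 22 met neither call, beside 12.1% and 4.35% of all probe sets that fell and rose. Their median change was −0.12, against 0.10 for all probe sets. After cyclic loess 9 fell and 3 rose, and after quantile normalization 7 fell and 3 rose. The deepest falls were in Pgk1 (−2.78), Tpi1 (−2.13) and Ldha (−2.11), enzymes of glycolysis and lactate formation that are also abundant in muscle fibres. The rise was in Slc16a3 (1.003, adjusted p = 0.000929), a lactate exporter, which stood at the fold criterion. It lost the call on leaving out rat 3 or 4 at 48 h or rat 1 or 5 at 0 h, with changes of 0.88 to 0.96, and was 0.54 with arrays centred on the olfactory receptors and −1.07 on the Bacillus controls.

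**Figure D4:**
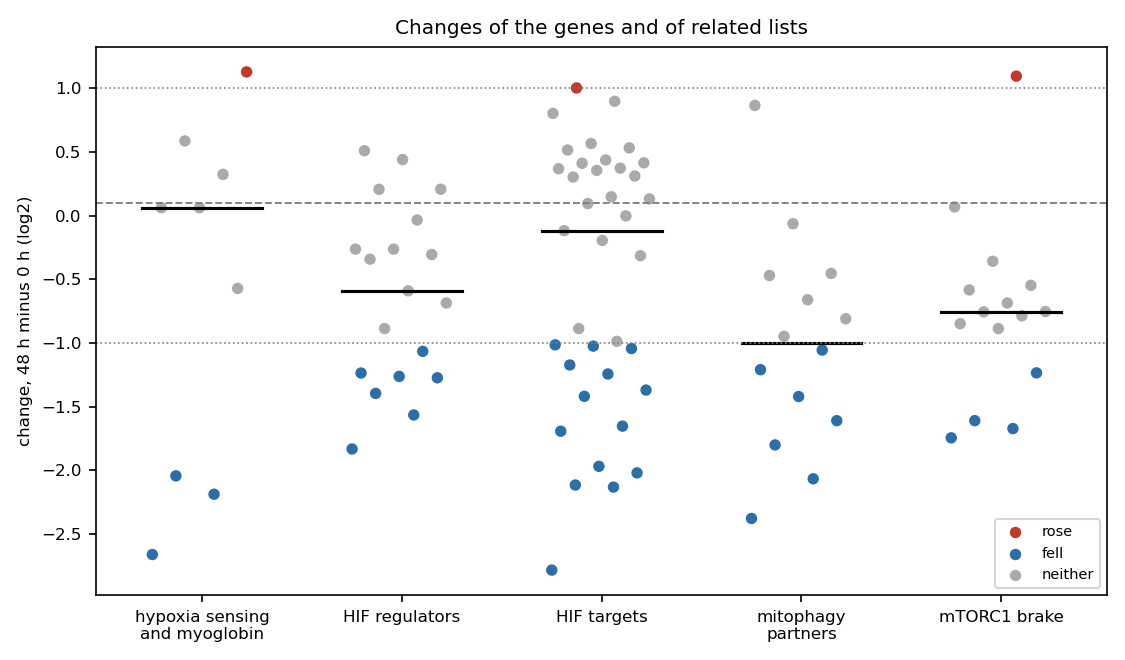
Change at 48 h against 0 h of PMI (log2) of the 9 genes and of every measured gene of 4 related lists, 1 point per gene, red where it rose, blue where it fell and grey otherwise. Solid lines are list medians, the dashed line the median of all probe sets (0.10) and dotted lines 2-fold; the falls outnumber the rises in every column.

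Other marker lists moved with the groups as well. Of 10 measured muscle fibre markers 6 fell and none rose (median change −1.19), and of 8 fibroblast markers 6 fell and none rose (−1.23), against 3 and 2 falls in these lists after cyclic loess. Of 6 adipocyte markers 2 rose and 1 fell (0.34), of 10 macrophage markers 1 fell (−0.36), and of 7 smooth muscle markers none met a call as deposited (0.64), but 5 were higher by the adjusted p alone and 5 rose after cyclic loess or quantile normalization. With olfactory centring 4 macrophage markers fell. With Bacillus centring all 7 smooth muscle and all 10 macrophage markers fell. Their part in the changes of the 9 genes was not tested. The arrays also differed in range: the 99th percentile of all probe sets was 9.82 to 10.02 at 48 h and 10.64 to 10.72 at 0 h, the background median was higher at 48 h, and the mean of the Bacillus controls was 7.56 to 8.26 at 48 h and 5.53 to 6.34 at 0 h. RNA integrity at 48 h was not assessed, per the study's methods. Of all calls 73.6% were falls as deposited, 61.1% after cyclic loess, 58.1% after quantile normalization, 96.1% with olfactory centring and 100% with Bacillus centring.

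The rats within a group did not vary evenly over the 9 genes. Rat 2 at 48 h held the lowest value of its group for Mb, Bnip3, Higd1a and Ankrd37 and the highest for Hif1a, Epas1, Bnip3l and Ddit4, and so was at an end of the group in 8 of the 9 genes, while it was at an end in 43.3% of all probe sets. It thus had the lowest level of each gene that fell and the highest level of the gene that rose. Marker lists ran alike in this rat: it had the lowest muscle fibre median of its group (10.65). Its endothelial (9.26), erythroid (9.74) and smooth muscle (9.07) medians were the highest, while its slow-fibre median (5.80) was not the lowest. The part of cell types in these differences between rats was not tested. Rat 1 at 48 h was the reverse for 4 genes, with the highest Mb, Bnip3 and Higd1a and the lowest Hif1a, and was at an end in 8801 of the 23188 probe sets, a share close to its 4 of 9. At 0 h, rat 1 had the lowest Mb, Epas1 and Higd1a and the highest Bnip3 and Bnip3l, and was at an end in 46.4% of all probe sets. Mb and Higd1a were thus at the same end in rats 1 and 2 at 48 h and in rat 1 at 0 h, whereas Bnip3 was at the opposite end from them in rat 1 at 0 h.

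**Figure D5:**
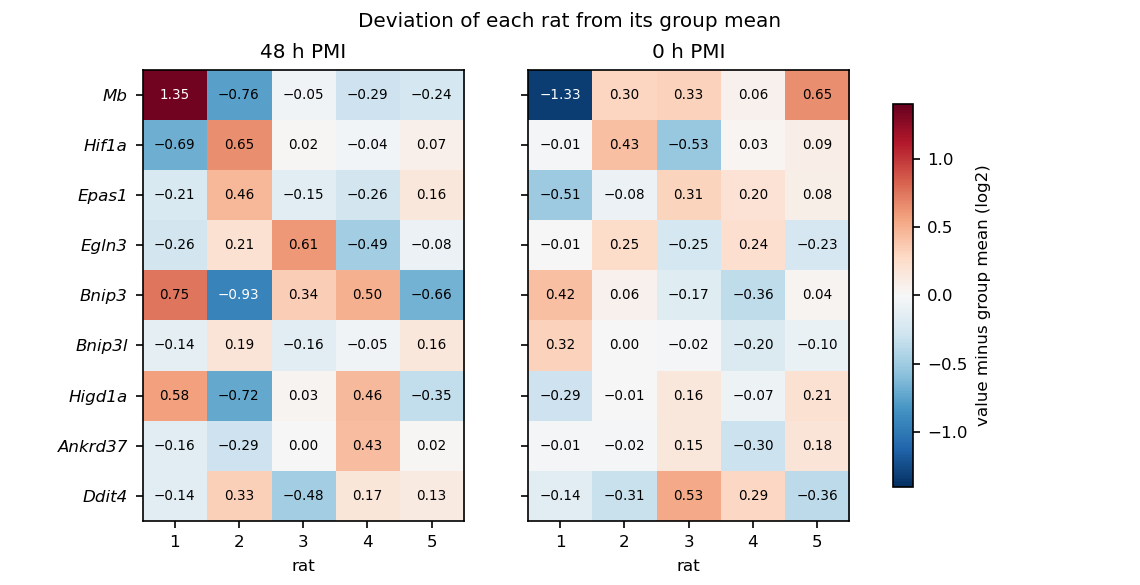
Level of each of the 9 genes in each rat minus the mean of its group (log2), with 48 h of PMI on the left and 0 h on the right; red is above and blue below the group mean. Mb in rat 1 deviated by 1.35 at 48 h and by −1.33 at 0 h, the widest deviations of the 9 genes.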

How the data were processed

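Clariom S Rat arrays of femoral muscle from 10 rats were used, grouped and numbered as in the sample labels. The authors processed the scans with RMA in the Transcriptome Analysis Console (the submitters' processing notes give version 4.0 and build rn6), and the deposited log2 values were used as they stand. Of 24834 probe sets, 1646 controls were left out and 23188 were tested. Symbols came from the platform's probe table, with 1 symbol for 15049 probe sets and none for 8139. A gene was read from its probe set with the highest mean.

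The comparison of 48 h with 0 h used lmFit and eBayes of limma 3.58.1 (R 4.3.3, two-sided; 8 residual degrees of freedom, 8.99 prior) with Benjamini-Hochberg adjustment over all probe sets. Calls needed a 2-fold change and an adjusted p under 0.05. Pairs of related genes were compared with exact permutation tests. The text names the listed genes, up to 3 of the largest called falls and rises of each pathway list and of the endothelial list, all genes of lists of at most 3, and the 5 genes closest to Mb and to Epas1, and names Myh7, Tnnt1, Vhl, Arnt and Hif3a after their values were seen. The 10 genes and all lists were chosen with earlier results of these data known. The script was tested on simulated data. The alternatives were other moderation, 4 scalings, a filter on low levels, the threshold, the rat number as a block and leaving out rats. Promoters came from RefSeq (GRCr8), and figures were drawn with matplotlib 3.10.9.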

Additional observations from a re-analysis of the deposited data

How the results depend on the processing

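Under other moderation and the leaving out of rats, 3 of the 9 genes fell and 1 rose, as did 3 and 1 of the 6 genes that passed the filter on low levels. The number that rose was 2 after cyclic loess, 2 after quantile normalization and 2 by the adjusted p alone, and 0 with Bacillus or olfactory centring. The olfactory receptor probe sets are genes among those tested and not controls. The number that fell was 8 with Bacillus centring and 4 with olfactory centring. Cyclic loess gave 1307 rises and 2049 falls over all probe sets, and quantile normalization 1441 and 1998. Over all probe sets, 0 rose with Bacillus centring, 208 with olfactory centring, 534 among probe sets at or above the median level and 5106 by the adjusted p alone, against 1009 as deposited. The number that fell was 22407 with Bacillus centring, 5061 with olfactory centring, 2629 among probe sets at or above the median level and 5296 by the adjusted p alone, against 2811. Leaving out 1 rat gave 948 to 1118 rises and 2706 to 2898 falls, and leaving out rat 1 of both groups, chosen after seeing the data, gave 1120 and 2870.

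Several changes took the other sign. With Bacillus centring the median change of all probe sets was −1.97, as those controls read higher at 48 h (mean 7.96) than at 0 h (5.89). The changes of sign were then −2.01 for Hif1a, −0.94 for Epas1, −1.48 for Bnip3l, −2.01 for Ankrd37, −1.75 for Ddit4, −0.14 for Flt1, −0.48 for Eng, −1.07 for Slc16a3, −1.89 for Cygb, −0.97 for Sesn2, −0.86 for Sh2d3c, −0.99 for Tmem88, −0.96 for Fli1, −0.84 for Cdh5, −1.09 for Igfbp7 and −1.56 for Hif3a. With olfactory centring they were −0.40 for Hif1a, −0.40 for Ankrd37, −0.14 for Ddit4 and −0.29 for Cygb. Cyclic loess gave −0.28 for Ankrd37 and 0.036 for Higd1b, and quantile normalization −0.21 for Ankrd37, 0.059 for Higd1b and 0.057 for Arnt. Leaving out 1 rat gave −0.098 (without rat 2 at 48 h) to 0.24 for Hif1a, also below 0 without rat 3 at 0 h (−0.069), and −0.046 (without rat 4 at 48 h) to 0.14 for Ankrd37, also below 0 without rat 4 at 0 h (−0.012). The cause was not tested for these scalings. Egln3 passed the fold criterion with olfactory (−1.04) and Bacillus centring (−2.64).

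With the rat number as a replicate block, 1 of the 9 genes rose and 3 fell, over all probe sets 1009 rose and 2815 fell, and Mb had an adjusted p of 3.16e-05. The numbers do not pair the rats, which differ between groups. Deviations of rats of the same number correlated at −0.00416 to 0.0761, and those of different numbers at −0.0685 to 0.0552. As each gene had 1 probe set, averaging probe sets changed nothing, and Egln1 against Egln3 was not run. Signal limits Ankrd37 and Egln3, which lay near the background, and Ddit4, which lay not far above it. The relative scale limits every direction given here.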
